A study of Sus scrofa with 4 samples.

Results

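The miR-99/100, miR-125 and miR-10 family was measured in small RNA libraries of piglet hippocampus. Its members were taken by name from the deposited table of annotated pig miRNAs, as every miR-99, miR-100, miR-125 and miR-10 entry with any letter and arm. There were 8 of them (miR-99a, miR-99b, miR-100, miR-125a, miR-125b, miR-10a-5p, miR-10a-3p and miR-10b) among 321 annotated miRNAs, after 326 deposited rows had been reduced by merging duplicates. A separate deposited table of conserved miRNA sequences, which lists entries under the names of many species, gave 96 of its 2791 rows to the mir-10 family and served as a check and as the source of sequences. All values below come from 4 libraries, each 1 pool of tissue.

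The iron groups were Rongchang piglets, a Chinese breed, that had been given 200 mg of iron dextran into muscle on days 3 and 4 after birth, and the labels call them the oxidative stress group. The control groups were littermates for which no injection is described. The 8 newborn piglets came from 1 litter, 4 of them female and 4 male, with 4 in each treatment group. Dorsal hippocampus and ventral hippocampus were dissected apart, and tissue was mixed within each treatment group and region. This gave 1 library each of iron dorsal, iron ventral, control dorsal and control ventral hippocampus, and both libraries of a treatment group came from the same group of 4 piglets. The number of piglets behind each pool is not stated. Since no group has a replicate, differences between libraries have no replicate check, and the intervals given here cover counting error only.

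A mature miRNA guides the Argonaute protein to messenger RNAs, and bases 2 to 8 from its 5′ end, the seed, do most of the pairing. Members of this family descend from 1 ancestral gene but carry different seeds. In vertebrates miR-99, miR-100 and miR-125 genes lie in clusters with let-7 genes, whereas the miR-10 genes lie inside the Hox clusters that pattern the trunk and hindbrain. miR-125 is the vertebrate counterpart of lin-4, the founding miRNA of Caenorhabditis elegans. In mouse neurons miR-125a and miR-125b were found at synapses, where miR-125a acts on the message of the scaffold protein PSD-95 and miR-125b on that of an NMDA receptor subunit. In human cells miR-99a and miR-100 target mTOR, a kinase that controls growth. miR-10a and miR-10b are known as markers of caudal tissue, in which they act on Hox messages.

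The mature sequences of the 8 members, as listed for pig in the deposited conserved table, are shown because members with 1 seed and nearly the same letters can share reads. The seed is in capitals and each sequence runs 5′ to 3′.
miR-99a: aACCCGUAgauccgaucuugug
miR-100: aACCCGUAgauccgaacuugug
miR-99b: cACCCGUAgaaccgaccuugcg
miR-125b: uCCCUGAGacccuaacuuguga
miR-125a: uCCCUGAGacccuuuaaccugug
miR-10b: uACCCUGUagaaccgaauuugu
miR-10a-5p: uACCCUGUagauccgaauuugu
miR-10a-3p: cAAAUUCGuaucuaggggaau

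The 7 forms from the 5′ arm fall into 3 seed groups. miR-99a, miR-99b and miR-100 share the first seed, miR-125a and miR-125b the next, and miR-10a-5p and miR-10b the last. Counted from base 1 at the 5′ end, miR-99a and miR-100 differ by the single substitution U16A, and miR-10b and miR-10a-5p by A12U. miR-99b differs from miR-99a at 4 positions, A1C, U11A, U16C and U21C, all of them outside the seed. miR-125a and miR-125b lie 4 edits apart and share their first 13 bases. The run cccug begins at base 2 of both miR-125 forms and at base 3 of both miR-10 forms, so these seeds overlap with a shift of 1 base. The seed of miR-10a-3p, which comes from the other arm of the miR-10a hairpin, matches none of the other 7 members. The sources used here do not say how the authors assigned reads that fit more than 1 entry, so the separation of miR-99a from miR-100, and of miR-10a-5p from miR-10b, is uncertain.

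In the pig gene annotation of RefSeq (assembly Sscrofa11.1, used here for names and neighbours alone), 7 of the 8 precursors of the family had an entry. MIR99A had MIRLET7C within 50 kb. MIR125A, MIRLET7E and MIR99B were close neighbours, as were MIR125B-1, MIRLET7A-1 and MIR100. MIR10A stood between HOXB3 and HOXB5, and MIR10B stood beside HOXD3. For mir-125b-2 no entry was matched. miR-125b of the tables can come from either of its precursors, and its level cannot be divided between them.

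The libraries held 11396800 (iron dorsal), 12299682 (iron ventral), 12100970 (control dorsal) and 13839534 (control ventral) annotated miRNA reads. Levels are given as CPM, reads brought to 1 common library size with TMM, a scaling that discounts differences in composition. A count of 0 reads allows up to 3 reads, which is 0.217 to 0.263 CPM in these libraries. A miRNA was called measured when it reached 10 CPM in at least 1 library, as 251 of 321 annotated miRNAs did. Of the family 7 members passed, and miR-10a-3p did not. As a check of the tissue, 9 measured forms of neuron-enriched miRNAs summed to between 238291 and 267188 CPM, of which miR-9 alone gave 176620 to 202670 CPM, and miR-196a, a Hox cluster miRNA, had at most 0.188 CPM.

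A large part of the miRNA reads of the hippocampus came from this family. Its share of annotated miRNA reads was 20.4% in iron dorsal, 19.6% in iron ventral, 19.3% in control dorsal and 17.8% in control ventral hippocampus. The exact binomial (Clopper-Pearson) 95% intervals reached at most 0.0234 percentage points from these shares. Most of these reads were miR-99/100 sequences, which made up 86.7% of the family's reads in iron dorsal, 85.3% in iron ventral, 85.8% in control dorsal and 82.7% in control ventral hippocampus. The miR-125 seed group took 13.1%, 14.5%, 13.9% and 17.0% of the family in the same order of libraries. The miR-10 group was a trace, with 0.218% in iron dorsal, 0.290% in iron ventral, 0.257% in control dorsal and 0.232% in control ventral hippocampus.

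miR-99a was the second most abundant annotated miRNA in all 4 libraries. It had 132006 CPM in iron dorsal, 114323 in iron ventral, 108818 in control dorsal and 94915 in control ventral hippocampus. Both iron libraries stood above both control libraries. That single sequence took 12.3%, 11.5%, 11.1% and 9.94% of annotated reads in that order of libraries. miR-100, which differs from it by 1 base, had 42429 CPM in iron dorsal, 35960 in iron ventral, 34496 in control dorsal and 31826 in control ventral hippocampus. These values keep the same order of libraries as those of miR-99a. miR-99b, the miR-99/100 member whose gene lies with miR-125a, had 15258 CPM in iron dorsal, 16599 in iron ventral, 19123 in control dorsal and 13833 in control ventral hippocampus. Here the highest and the lowest value both belonged to control piglets, so the iron libraries lay between them.

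miR-125b had 24741 CPM in iron dorsal, 25199 in iron ventral, 23470 in control dorsal and 25189 in control ventral hippocampus. It was the member with the narrowest span over the libraries. miR-125a had 3962 CPM in iron dorsal, 3097 in iron ventral, 2841 in control dorsal and 3736 in control ventral hippocampus. Iron dorsal and control ventral were high and iron ventral and control dorsal were low, nearly the reverse of miR-99b.

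miR-10b, in vertebrates a Hox cluster miRNA, had 468 CPM in iron dorsal, 559 in iron ventral, 471 in control dorsal and 384 in control ventral hippocampus. miR-10a-5p was near the minimum, with 97 reads (9.11 CPM) in iron dorsal, 108 reads (8.76 CPM) in iron ventral, 174 reads (14.1 CPM) in control dorsal and 150 reads (10.4 CPM) in control ventral hippocampus. Both iron values were below both control values. miR-10a-3p had 0 reads in iron dorsal, 3 in iron ventral, 1 in control dorsal and 0 in control ventral hippocampus, which is at or under the limit that a count of 0 allows. The order of the members by reads, miR-99a, miR-100, miR-125b, miR-99b, miR-125a, miR-10b, miR-10a-5p and miR-10a-3p, held in each of the 4 libraries. Neighbours in that order differed beyond counting error in each library, but no spread between piglets stands behind it.

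**Figure D1:**
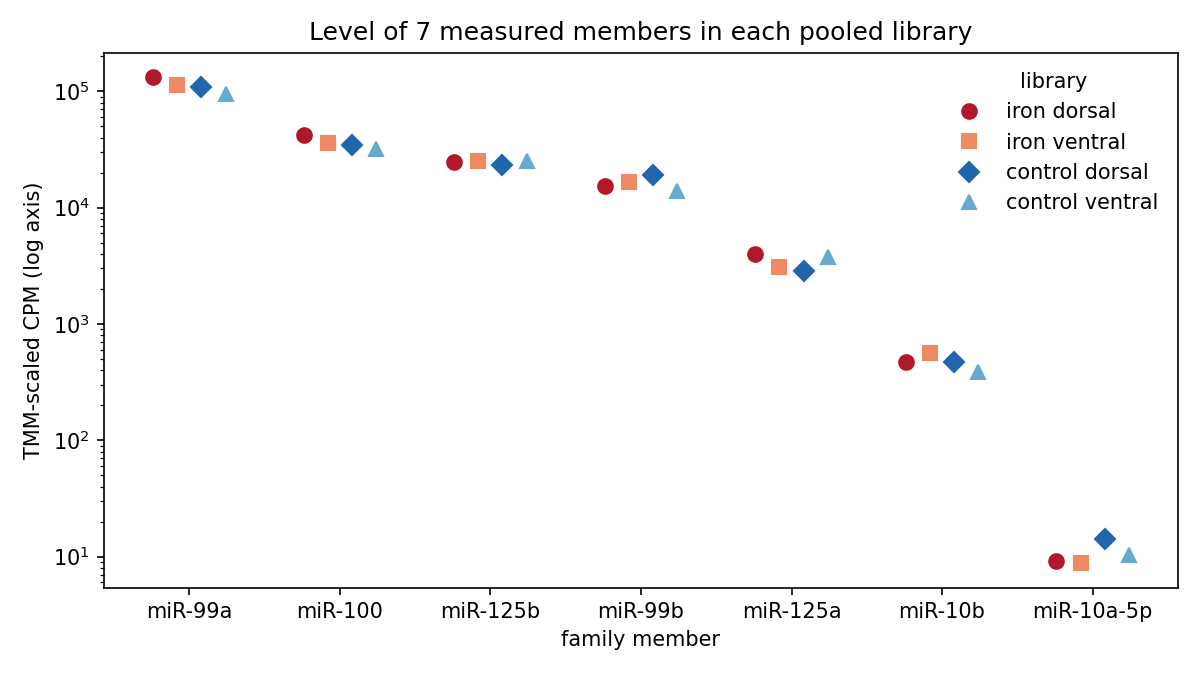
Level of the 7 measured members (TMM-scaled CPM, log axis) in each of the 4 pooled libraries, 1 point per library with no error bar since each group is 1 pool. miR-99a lies between 94915 and 132006 CPM and miR-10a-5p between 8.76 and 14.1 CPM, and the order of members is the same in every library.

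The first question is what iron dextran did in each region. The family as a whole had 1.16 times as many CPM in iron as in control dorsal hippocampus and 1.15 times as many in iron as in control ventral hippocampus. miR-99a was higher in iron than in control libraries of both regions, by 1.21-fold in dorsal (95% interval 1.21 to 1.22) and 1.20-fold in ventral hippocampus (1.20 to 1.21). miR-100 was higher by 1.23-fold in dorsal (1.22 to 1.24) and 1.13-fold in ventral hippocampus (1.13 to 1.13). For miR-125b the ratio was 1.05 (1.05 to 1.06) in dorsal hippocampus, a direction that turned when libraries were scaled by total counts or the authors' RPM, and in ventral hippocampus its interval, 0.996 to 1.01, included 1. These are ratios of 1 pool to 1 pool, and all of them are below 1.5-fold.

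The other members differed between the regions or rested on few reads. miR-99b was 0.798 times as high in iron as in control dorsal hippocampus (0.793 to 0.803) and 1.20 times as high in iron as in control ventral hippocampus (1.19 to 1.21). For miR-125a the order was turned round, with a ratio of 1.39 (1.38 to 1.41) in dorsal and 0.829 (0.818 to 0.840) in ventral hippocampus. So the pair encoded in 1 cluster stood on opposite sides of 1 within each region. miR-10b had an iron to control ratio of 0.993 (0.956 to 1.03) in dorsal and 1.45 (1.40 to 1.51) in ventral hippocampus. miR-10a-5p had a ratio of 0.646 (0.499 to 0.833) in dorsal hippocampus, where it was 1.55-fold lower, and of 0.846 (0.655 to 1.09) in ventral hippocampus. The upper bound of the dorsal interval, 0.833, is well short of a 1.5-fold difference.

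A miRNA counted as different if it was at least 1.5-fold higher or lower with a counting interval that left out 1. In dorsal hippocampus 1 of 7 measured members passed in iron against control, miR-10a-5p, against 9.56% of the 251 measured miRNAs in either direction and 5.98% in the lower direction. That member reached 10 CPM in the control libraries alone, so only the libraries where it was higher let it into the count. In ventral hippocampus 0 of 7 passed, against 5.58% of all measured miRNAs. At 2-fold 0 members passed in either region, against 0.797% in dorsal and 1.99% in ventral hippocampus. With 7 members, shares of this size come to less than 1 member, so the counts do not set the family apart. The median log2 ratio over the 7 members was 0.08 in dorsal and 0.18 in ventral hippocampus, beside -0.02 and 0.00 over all measured miRNAs. Above 1 stood 4 of 7 members in dorsal and 5 of 7 in ventral hippocampus, against 47.0% and 51.4% of all measured miRNAs.

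For 77 of the 251 measured miRNAs, or 30.7%, the iron to control ratio lay above 1 in one region and below 1 in the other, beyond counting error in each. Among the members this held for 2 of 7, miR-99b and miR-125a, which is close to that background. With the added demand that the log2 ratios lie at least 0.5 apart, 39 of the 251, or 15.5%, passed, and the same 2 members did. The log2 iron ratio in dorsal minus that in ventral hippocampus was -0.59 for miR-99b and 0.75 for miR-125a. It was -0.55 for miR-10b, nearly as large as for miR-99b, and -0.39 for miR-10a-5p. For miR-99a it was 0.01, for miR-100 0.12 and for miR-125b 0.08. With 1 library per group these differences were not tested.

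An additive model over the 4 libraries, with terms for treatment and region, left 1 residual degree of freedom. In that fit edgeR's quasi-likelihood test with Benjamini-Hochberg adjustment called 0 of 251 miRNAs (0%) for iron against control at an adjusted p of 0.05, where 11 had an unadjusted p below 0.05, DESeq2 called 1 and limma 0. miR-99a had a log2 change of 0.27 (SE 0.15) and an edgeR adjusted p of 0.93, the unadjusted p being 0.090. For miR-10a-5p the log2 change was -0.44 (SE 0.24), with an edgeR adjusted p of 0.93. The edgeR adjusted p of the 7 members ran between 0.93 and 0.99. The p-values describe these libraries alone, since both regions of a treatment were pooled from 1 group of piglets.

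The next question is whether dorsal and ventral hippocampus differed. In control piglets miR-99b had a dorsal to ventral ratio of 1.38 (1.37 to 1.39), miR-10a-5p of 1.36 (1.09 to 1.71), miR-10b of 1.23 (1.18 to 1.27), miR-99a of 1.15 (1.14 to 1.15) and miR-100 of 1.08 (1.08 to 1.09). Below 1 were miR-125b, with 0.932 (0.927 to 0.936), and miR-125a, with 0.760 (0.750 to 0.771). In control tissue, then, both miR-125 members were lower in the dorsal library and the members of the other seed groups were higher there. In iron piglets the dorsal to ventral ratio was 1.28 (1.26 to 1.30) for miR-125a, 1.18 (1.17 to 1.18) for miR-100, 1.15 (1.15 to 1.16) for miR-99a and 1.04 (0.782 to 1.38) for miR-10a-5p. It was 0.982 (0.977 to 0.987) for miR-125b, 0.919 (0.913 to 0.925) for miR-99b and 0.838 (0.808 to 0.869) for miR-10b. miR-99a and miR-100 were thus higher in the dorsal library of both treatment groups, while miR-99b, miR-125a and miR-10b stood on opposite sides of 1 in the treatment groups. This repeats the 4 values behind the iron ratios and is no separate evidence.

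None of the 7 measured members passed 1.5-fold between regions, either in control piglets, where 6.77% of all measured miRNAs did, or in iron piglets, where 8.37% did. At 2-fold the shares of all measured miRNAs were 1.99% in control and 0.797% in iron piglets, and again 0 members passed. The members' median log2 ratio was 0.20 in control and 0.06 in iron piglets, beside 0.00 and 0.01 over all. For dorsal against ventral over both treatments edgeR's quasi-likelihood test called 0 of 251 (0%), where 8 had an unadjusted p below 0.05, and DESeq2 and limma called 0 as well. The edgeR adjusted p of every member was 0.996, and miR-99a had the lowest unadjusted edgeR p of the family, 0.195.

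**Figure D2:**
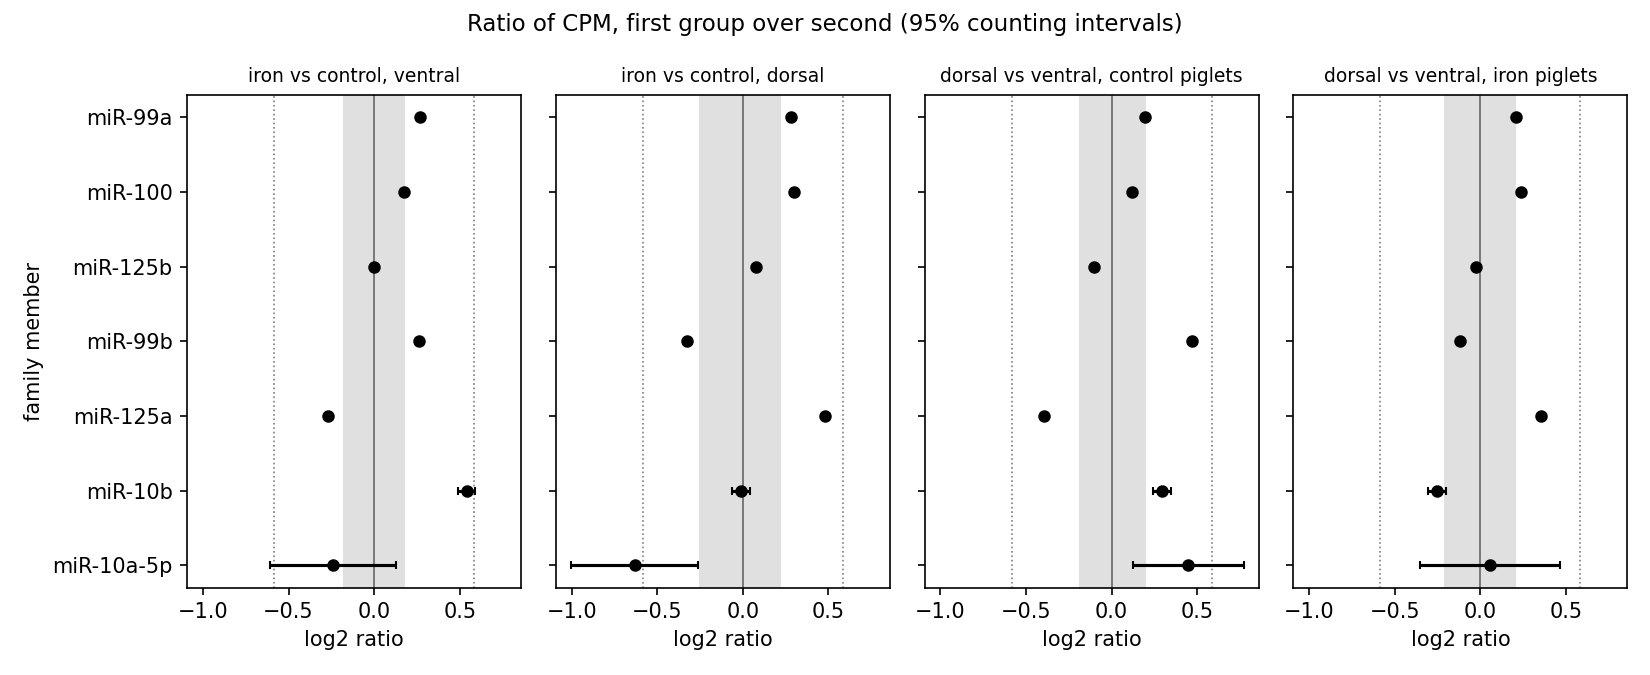
Log2 ratio of CPM for the 7 measured members in 4 comparisons, with 95% counting intervals as bars (hidden by the point where narrow), the span from the lower to the upper quartile of all 251 measured miRNAs in grey, and dotted lines at 1.5-fold. miR-10a-5p in iron against control dorsal hippocampus, at -0.63, is the one point beyond a dotted line, and miR-99b and miR-125a lie on opposite sides of 0 in each comparison.

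In bulk tissue, fewer cells of a type and less RNA per cell cannot be told apart. Markers of cell types differed between the same libraries. Neuron-enriched miRNAs summed to 238291 CPM in iron dorsal, 253073 in iron ventral, 248257 in control dorsal and 267188 in control ventral hippocampus. That sum was lower in the iron library of each region and in the dorsal library of each treatment, the reverse of miR-99a and miR-100. miR-9, most of the neuron sum, was itself higher in iron than in control dorsal hippocampus, at 180323 against 176620 CPM. miR-124a and miR-128 were higher in iron ventral (41655 and 14615 CPM) than in control ventral hippocampus (40373 and 11446). miR-218 was higher in the dorsal than in the ventral library of each treatment. Of the measured neuron forms only miR-138 kept all directions of the sum. The 2 measured oligodendrocyte miRNAs summed to 8812 CPM in iron dorsal, 13906 in iron ventral, 11503 in control dorsal and 10264 in control ventral hippocampus, and both were at least 1.5-fold lower in the dorsal than in the ventral library of iron piglets. That order of libraries, iron ventral highest and iron dorsal lowest, differs from those of all 7 measured members. Vascular miRNAs summed over 6 forms to 18871 CPM in iron dorsal, 17044 in iron ventral, 21937 in control dorsal and 16024 in control ventral hippocampus. miR-99b had its highest and lowest values in the same libraries, control dorsal and control ventral. Most of the vascular sum was miR-143-3p, with 14800 CPM in control dorsal hippocampus. miR-143-3p, miR-143-5p and miR-126-5p had the same ends as the sum. miR-126-3p and miR-145-5p were instead highest in iron dorsal and miR-145-3p in iron ventral hippocampus. Astrocyte-enriched miRNAs, 4 of 4 measured, summed to 37842 CPM in iron dorsal, 34290 in iron ventral, 35924 in control dorsal and 31808 in control ventral hippocampus. Like miR-99a and miR-100, that sum was higher in the iron than in the control library of each region. It was also higher in the dorsal than in the ventral library of each treatment. Its log2 iron ratio was smaller, 0.08 in dorsal and 0.11 in ventral hippocampus, beside 0.28 and 0.27 for miR-99a. Most of the sum was miR-26a, with 30988 CPM in iron and 30638 in control dorsal hippocampus. miR-23a, miR-23b and miR-26a kept both directions, but miR-29a was lower in control dorsal (2734 CPM) than in control ventral hippocampus (2855). Microglial and immune miRNAs summed to 889, 951, 1010 and 1109 CPM in the same order, and 3 erythroid miRNAs to 861, 1019, 837 and 1075 CPM. miR-204, the one choroid plexus marker with an annotated row, had 164, 178, 199 and 253 CPM, and so was lower in the iron than in the control library of each region. The part of cell composition in the members' ratios was not tested.

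Ratios between members of 1 library do not depend on how libraries are scaled. Among miRNAs with the same seed, the reads of miR-99a over those of miR-100 gave 3.11 in iron dorsal, 3.18 in iron ventral, 3.15 in control dorsal and 2.98 in control ventral hippocampus. The most abundant pair, 1 base apart, thus kept a nearly constant proportion. miR-99a over miR-99b gave 8.65 in iron dorsal, 6.89 in iron ventral, 5.69 in control dorsal and 6.86 in control ventral hippocampus, so that the ventral libraries had nearly the same value and the dorsal ones lay on either side. miR-125b over miR-125a gave 6.24 in iron dorsal, 8.14 in iron ventral, 8.26 in control dorsal and 6.74 in control ventral hippocampus. For miR-10b over miR-10a-5p the ratio was 51.4 (42.0 to 63.5) in iron dorsal, 63.8 (52.7 to 77.9) in iron ventral, 33.4 (28.7 to 39.1) in control dorsal and 37.1 (31.5 to 43.9) in control ventral hippocampus. Within the miR-10 seed group the b form outweighed the a form more in both iron libraries than in the control library of the same region, and the counting intervals did not overlap between treatments of dorsal hippocampus or of ventral hippocampus. Those of miR-99a over miR-100 and of miR-125b over miR-125a did not overlap either. The miR-10 ratio rests on 97 to 174 reads of miR-10a-5p and was not set beside pairs of other miRNAs.

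Among pairs of 1 gene cluster, miR-99b and miR-125a had the widest span. miR-99b over miR-125a was 3.85 (3.81 to 3.89) in iron dorsal, 5.36 (5.30 to 5.42) in iron ventral, 6.73 (6.66 to 6.81) in control dorsal and 3.70 (3.67 to 3.74) in control ventral hippocampus. It was low in iron dorsal and control ventral tissue and high in iron ventral and control dorsal tissue. let-7e, encoded between them, had 2771 CPM in iron dorsal, 2648 in iron ventral, 2722 in control dorsal and 2469 in control ventral hippocampus, and its iron to control ratio was 1.02 in dorsal and 1.07 in ventral hippocampus. miR-99b over let-7e was 5.51, 6.27, 7.02 and 5.60 in iron dorsal, iron ventral, control dorsal and control ventral hippocampus. miR-125a over let-7e was 1.43, 1.17, 1.04 and 1.51 in the same order. Both flanking miRNAs therefore shifted against let-7e, in opposite directions.

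The other clusters showed smaller shifts. miR-100 over miR-125b was 1.71 in iron dorsal, 1.43 in iron ventral, 1.47 in control dorsal and 1.26 in control ventral hippocampus. miR-99a over miR-125b was 5.34, 4.54, 4.64 and 3.77 in that order. Both ratios were higher in iron than in control libraries of the same region and higher in dorsal than in ventral libraries of the same treatment. miR-99a over let-7c, its neighbour, was 8.20 in iron dorsal, 7.22 in iron ventral, 6.37 in control dorsal and 6.56 in control ventral hippocampus. miR-100 over let-7a was 1.81, 1.68, 1.40 and 1.58 in that order, but let-7a comes from several genes and is not a measure of 1 cluster. Against both let-7 forms the miR-99/100 member was higher in iron than in control libraries of each region.

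**Figure D3:**
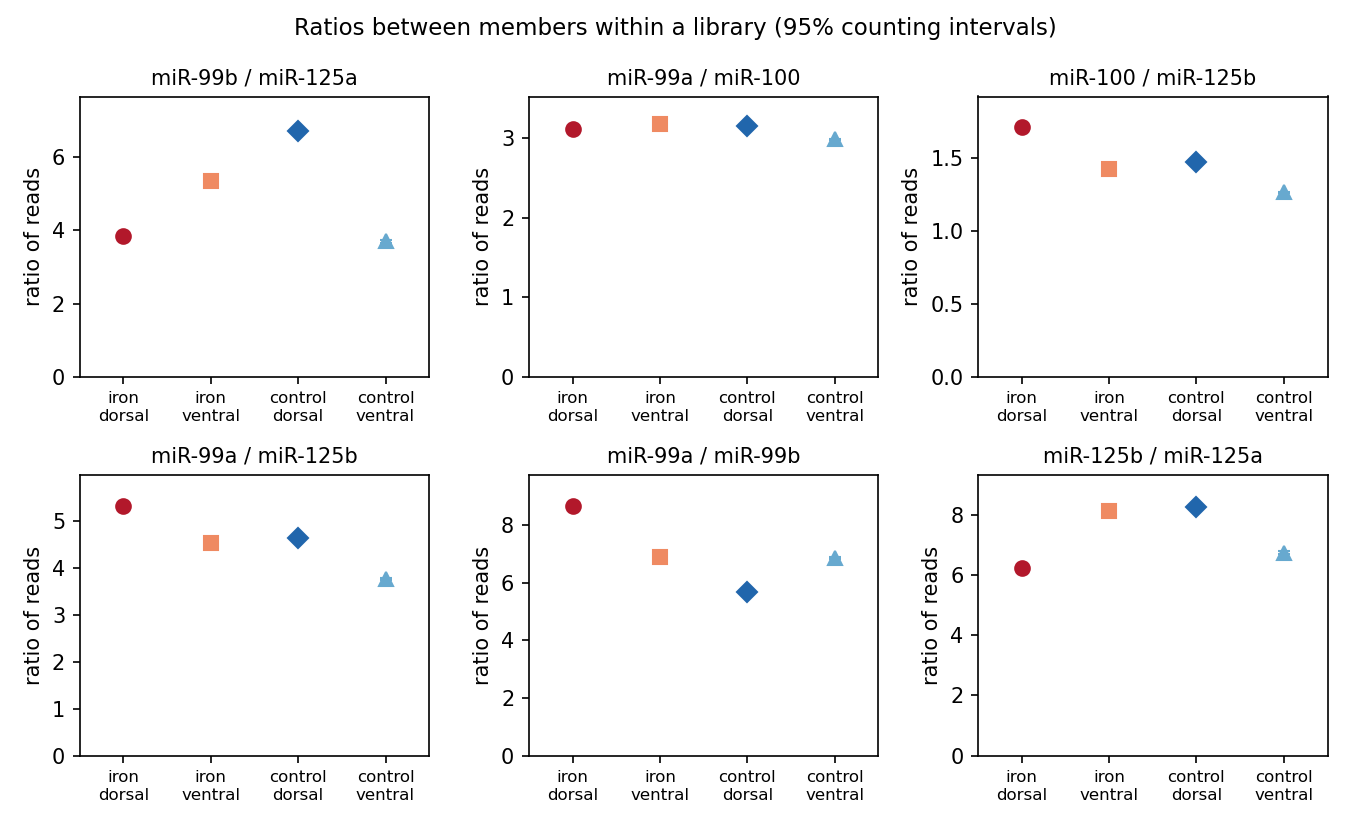
Reads of 1 member over reads of another within each library (axes from 0, bars are 95% counting intervals), for 6 pairs. miR-99b over miR-125a spans 3.70 to 6.73 with iron dorsal and control ventral low, while miR-99a over miR-100 stays between 2.98 and 3.18.

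The conserved table lists the other arm of each hairpin as well, which the annotated table gives for miR-10a alone. Its entries of the mir-10 family were assigned to 15 mature forms by the nearest sequence, at most 4 edits away, except for 1 reverse-complement entry of miR-125b, and 3 entries with few reads stayed unassigned. The 5′ arm dominated for every member. miR-100 had the most uneven arms, with 5′ to 3′ ratios of 4834 in iron dorsal, 4383 in iron ventral, 3433 in control dorsal and 3522 in control ventral hippocampus, on 90 to 126 reads of the 3′ arm. For miR-10a no ratio is given, since its 3′ arm had 0 to 3 reads. For miR-125a the ratio ran from 268 to 387, for miR-99b from 108 to 135 and for miR-10b from 97.2 to 131. miR-125b, the sum of its hairpins, had the most even arms of these members, with 11.2 in iron dorsal, 14.1 in iron ventral, 12.8 in control dorsal and 13.6 in control ventral hippocampus. Without the reverse-complement entry these were 8.47, 10.8, 9.75 and 10.4, in the same order of libraries.

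The arms of miR-99a separated the treatments. Its 5′ to 3′ ratio was 629 (603 to 657) in iron dorsal, 552 (530 to 574) in iron ventral, 413 (399 to 429) in control dorsal and 396 (383 to 410) in control ventral hippocampus. Both iron libraries lay above both control libraries, with no overlap of counting intervals. The arm ratio of miR-100 also lay higher in both iron libraries, but on few 3′ arm reads and with overlapping intervals. The 3′ arm itself had 188 RPM of the conserved table's reads in iron dorsal, 198 in iron ventral, 254 in control dorsal and 238 in control ventral hippocampus, so it was lower in both iron libraries, where the 5′ arm was higher. On the log2 scale the arm ratio was higher in iron by 0.61 in dorsal and by 0.48 in ventral hippocampus. Among 47 annotated hairpins of other families with both arms listed and at least 50 reads of the minor arm, 12 had a higher major to minor ratio in iron in both regions and 15 a lower one, and 0 had one higher by at least as much as miR-99a in both. Their ratios came from the annotated reads and that of miR-99a from the conserved table, so the rank sets unlike counts side by side. Of the members only miR-99a, whose arms separated the treatments, was set beside these hairpins, so its rank is no test. miR-27b came close, with 0.58 in dorsal and 0.44 in ventral hippocampus, and miR-30a had 0.73 in dorsal and 0.38 in ventral hippocampus; both were named after their values were seen. This is a description of 4 pools, and the spread of the ratio between piglets is unknown.

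The miR-125b hairpins can be told apart by their 3′ arms. These are shown because they are the one measure of each hairpin in the tables. Again the seed is in capitals, and the entry shown is the one with the most reads, named for human and for rat.
miR-125b-1-3p: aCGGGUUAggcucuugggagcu
miR-125b-2-3p: aCAAGUCAggcucuugggaccu

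miR-125b-2-3p had 1680 RPM of the conserved table's reads in iron dorsal, 1300 in iron ventral, 1375 in control dorsal and 1402 in control ventral hippocampus. miR-125b-1-3p had 331 RPM in iron dorsal, 432 in iron ventral, 434 in control dorsal and 457 in control ventral hippocampus. The 3′ arm of the second hairpin was thus the more abundant in every library. Its reads over those of the first were 5.07 (4.90 to 5.25) in iron dorsal, 3.01 (2.91 to 3.10) in iron ventral, 3.17 (3.07 to 3.27) in control dorsal and 3.07 (2.98 to 3.16) in control ventral hippocampus. Iron dorsal stood apart from the other libraries, which were close to each other. In iron against control dorsal hippocampus miR-125b-2-3p was higher, with a ratio of 1.22 (1.20 to 1.25), and miR-125b-1-3p lower, with a ratio of 0.763 (0.731 to 0.796). On the same scaling by total reads, the 5′ arm they share had an annotated log2 iron ratio of -0.050 in dorsal hippocampus.

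**Figure D4:**
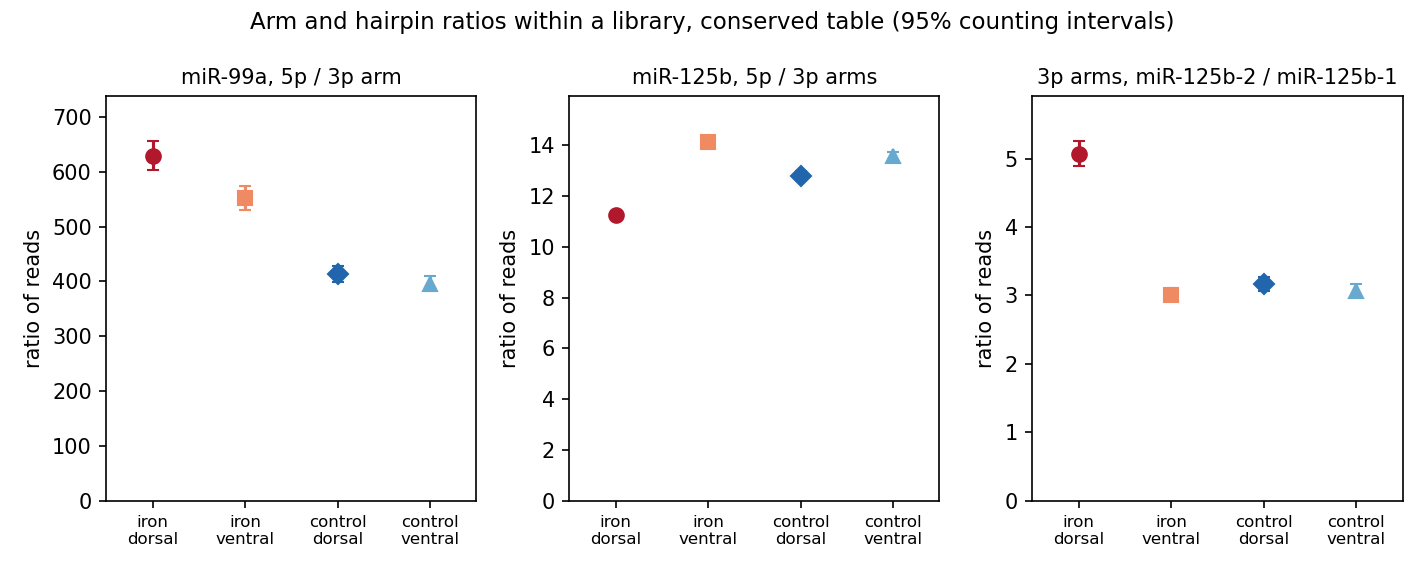
Ratios of reads between arms and hairpins within each library, from the conserved table (axes from 0, bars are 95% counting intervals): miR-99a 5′ over 3′ arm, miR-125b 5′ over 3′ arms, and the 3′ arms of the miR-125b hairpins. The miR-99a ratio is 629 and 552 in iron dorsal and ventral and 413 and 396 in control dorsal and ventral hippocampus, and the hairpin ratio is 5.07 in iron dorsal hippocampus against 3.01 to 3.17 elsewhere.

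The conserved table also holds entries of 1 miRNA that differ mostly in length at the 3′ end, since species in the database list different ends. These nested entries of miR-99a are shown with the bases beyond the shortest one in capitals.
20-base entry: aacccguagauccgaucuug
21-base entry: aacccguagauccgaucuugU
22-base entry: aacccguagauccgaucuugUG
23-base entry: aacccguagauccgaucuugUGA

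The pig-named entry has 22 bases. A 25-base entry of the miR-99a 5′ arm, with 205595 to 221751 reads per library, is neither shown nor counted among the nested reads. Entries shorter than the pig-named one took 33.9% of the nested miR-99a reads in iron dorsal, 30.6% in iron ventral, 29.4% in control dorsal and 31.2% in control ventral hippocampus. The 20-base entry alone took 17.0%, 13.8%, 11.7% and 15.2% in that order. For miR-125a the shorter entries took 26.6%, 23.9%, 22.5% and 26.1%, for miR-125b 23.0%, 21.0%, 19.6% and 21.5%, and for miR-100 17.4%, 15.3%, 14.4% and 15.5%, in the same order of libraries. The reverse-complement entry of miR-125b, counted in its arm ratio, is left out of these shares. The nested reads of miR-100 include several entries of 24 bases, which cannot differ by length alone. In each of these 4 miRNAs iron dorsal had the highest share and control dorsal the lowest. Short entries were more common in iron than in control dorsal hippocampus for 4 of 5 members with nested entries, by a median of 3.41 percentage points, and for 105 of 117 other pig-named sequences, by a median of 3.61 points. The shift was thus as large outside the family as in it. In iron against control ventral hippocampus 0 of 5 members and 40 of 117 others had a higher share. The sources used here do not say how reads were divided between nested entries, and the bearing of read length on the members' ratios was not tested.

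**Figure D5:**
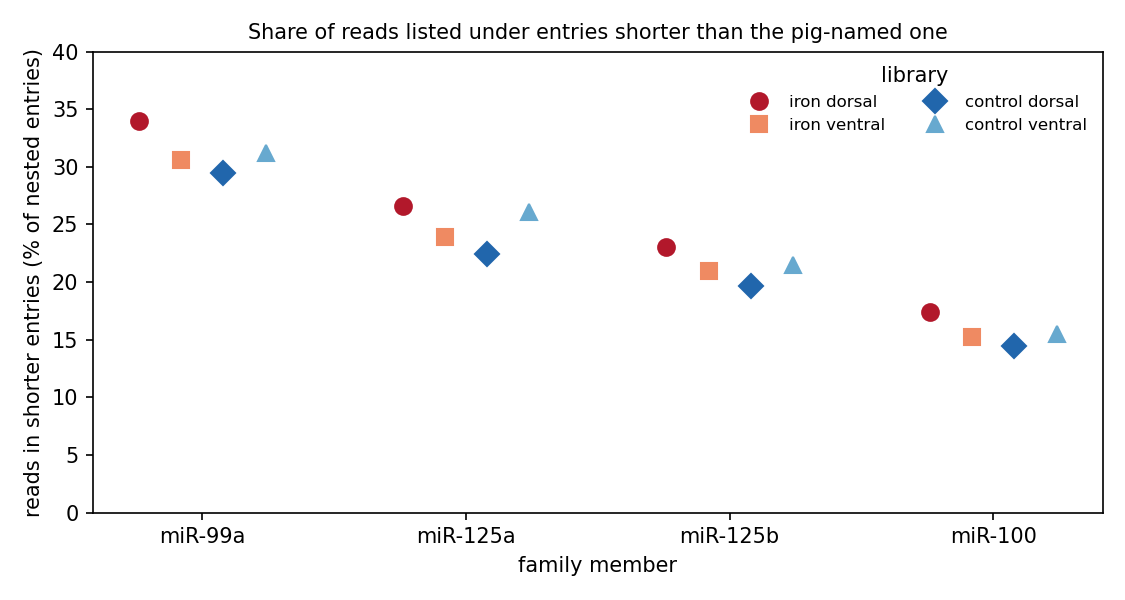
Percentage of nested reads listed under entries shorter than the pig-named one, for 4 members in each of the 4 libraries (axis from 0). Iron dorsal is the highest and control dorsal the lowest in every member, at 33.9% and 29.4% for miR-99a.

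The tables were set beside each other as a check of the members. For miR-99a, miR-100, miR-125b and miR-125a the 5′ arm reads of the conserved table came to between 94.6% and 96.9% of the annotated reads. For miR-99b they came to 66.2% in iron dorsal, 72.5% in iron ventral, 76.8% in control dorsal and 72.2% in control ventral hippocampus. For miR-10b the figures were 76.1%, 79.7%, 82.3% and 77.8% in that order. For miR-10a-5p they were 77.3%, 73.1%, 87.9% and 84.7%. The gap therefore differed between libraries for these members, and for miR-99b and miR-10b it was widest in iron dorsal tissue. For the iron ratios both tables were scaled by their total reads, without TMM. On the conserved reads the log2 iron to control ratio of miR-99b was -0.66 in dorsal and 0.21 in ventral hippocampus, beside -0.45 and 0.20 on the annotated reads. That of miR-10b was -0.24 in dorsal hippocampus, beside -0.14. For miR-125a it was 0.36 in dorsal and -0.33 in ventral hippocampus, beside 0.35 and -0.33, so the opposite directions of miR-99b and miR-125a appear in both tables, which count the same libraries. One conserved entry, named for lancelet miR-125b, is the exact reverse complement of the pig miR-125b entry and carries the same reads. For that reason it was counted with miR-125b, where it made up 23.5% to 24.7% of the 5′ arm reads.

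The profiles most like those of the leading members were sought among 170 annotated miRNAs with a mean of at least 100 CPM, by the distance between log2 CPM values centred over the 4 libraries. For miR-99a the nearest outside the family were miR-23a at 0.068, let-7f at 0.083 and miR-411 at 0.10, where the median over all was 0.40; miR-23a is also on the astrocyte-enriched list. For miR-125b they were miR-140-5p at 0.063, miR-92b-3p at 0.092 and miR-339-5p at 0.096, with a median of 0.32. For miR-10b they were miR-181a at 0.028, miR-181d-5p at 0.15 and miR-145-3p at 0.16, with a median of 0.46. miR-181a had 26509 CPM in iron dorsal, 32169 in iron ventral, 26410 in control dorsal and 21852 in control ventral hippocampus, the same order of libraries at the ends as miR-10b. With 4 libraries such a likeness rests on 4 points.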

How the data were processed

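Per the submitters' processing notes, reads were trimmed with cutadapt 1.2.2, and the notes name the builds Sscrofa 10.2 and susScr 3; no source used here names the aligner or counter. The authors deposited reads per entry, which are estimated counts (75.8% to 77.0% of annotated cells are exactly whole); they were rounded. The deposited RPM values of the annotated table were used as an alternative, and 8 columns of per-sample RPM in other tables were not used. Rows of 1 miRNA that repeated the same reads (within 0.1%, same precursors) were merged (miR-9, miR-218 and miR-490). CPM used TMM (edgeR 4.0.16). Ratios carry exact conditional binomial (Clopper-Pearson) 95% intervals, which cover counting error only, as amplified reads are not independent molecules. The model over 4 libraries was fitted with edgeR's quasi-likelihood test, DESeq2 1.42.0 and limma 3.58.1 (R 4.3.3), with p-values adjusted over all 251 measured miRNAs, and was tested on simulated data. Alternatives were total counts, DESeq2 size factors, RPM, other minimum levels and unmerged rows. Named miRNAs were all members, their let-7 cluster neighbours, Hox cluster miRNAs, marker lists and the 3 nearest profiles of each seed group's leading member. Members, lists and rules were chosen with earlier results of these data known.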

Additional observations from a re-analysis of the deposited data

Results flagged for a closer look

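Opposite directions of the iron to control ratio in the regions marked 2 members for a closer look. The log2 ratio of miR-99b was -0.33 in dorsal and 0.26 in ventral hippocampus, a dorsal minus ventral difference of -0.59. For miR-125a, encoded beside it, the log2 ratio was 0.48 in dorsal and -0.27 in ventral hippocampus, a difference of 0.75. Neither difference was tested, since each group is 1 pool, and 30.7% of all measured miRNAs also had opposite directions beyond counting error, 15.5% with log2 ratios at least 0.5 apart.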

How the results depend on the processing

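miR-10a-5p, the 1 member past 1.5-fold in iron against control dorsal hippocampus, was below the minimum level with a minimum of 100 CPM and with rows not merged, which left 6 members and a count of 0. The family's share in iron dorsal, iron ventral, control dorsal and control ventral hippocampus was 15.2%, 14.2%, 14.1% and 12.4% with rows not merged, 14.8%, 13.9%, 13.8% and 12.1% with the authors' RPM, whose total counts duplicated rows, and 19.5%, 18.6%, 18.3% and 16.8% of the conserved table. The log2 iron ratio of miR-125b in dorsal hippocampus, 0.08, reversed to -0.050 with total counts and -0.031 with RPM. Total counts shifted all log2 ratios by -0.13 in iron against control dorsal and by -0.10 in dorsal against ventral iron hippocampus, and RPM by -0.11 in the first. No member was called by the model under any alternative run; calls among all miRNAs ran from 0 to 3 for iron and from 0 to 4 for region. The labels give no replicate numbers, so no pairing beyond treatment group and region was possible. The region term of the model already sets iron against control within each region. Its treatment term sets dorsal against ventral within each treatment group, whose libraries came from the same piglets. Leaving out a library leaves no residual degrees of freedom and was not run. Leaving the reverse-complement entry out of the miR-125b arm ratio, chosen after seeing the data, lowered it in all 4 libraries, with the values given above. Depth limits miR-10a-5p and miR-10a-3p most.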
